A study of Rattus norvegicus with 12 samples.

Results

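Heat shock proteins and their DNAJ partners were followed in ventricular cardiomyocytes isolated from newborn rats, which are primary heart muscle cells kept in culture. Members were taken by name: every gene in the table whose symbol starts with Hspa, Hspb, Hspd, Hspe, Hsph, Hsp90 or Dnaj and that had at least 10 counts in at least 3 of the 12 libraries. Of 32883 genes in the table, 73 matched by name and 67 passed the count minimum. All 67 also passed the filter on low counts and were among the 14063 genes tested. The 67 members were 13 HSP70 genes (Hsph1 included), 3 HSP90 genes, the chaperonin pair Hspd1 and Hspe1, 7 small heat shock proteins, 4 DNAJA, 11 DNAJB and 25 DNAJC genes, and Hspbp1 and Hspbap1, which bind heat shock proteins and share only the start of the name. The 6 that fell short were Dnajb7 and Dnajc5b, whose third-highest counts were 9 and 8, and Dnajc6, Hspb9, Dnajc5g and Dnajb8. Just inside were Dnajb13 and Hsp90aa1, with third-highest counts of 22 and 32.

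All cells had received an adenovirus 2 days before, and the groups differed in the gene it carried. The LacZ group had a bacterial gene as control cargo. The WT group had human KAT6A, a histone acetyltransferase, without a mutation. The K815R group had KAT6A with a lysine replaced by arginine, described as resistant to acetylation, and the K815Q group had it replaced by glutamine, described as mimicking acetylation. Each group had 3 libraries of poly(A)-selected RNA, and all 3 KAT6A groups were compared with the same LacZ libraries. The viral promoter and dose are not given in the sources used here. Nothing in the labels says that the replicates were separate cultures or litters, so p-values measure the spread between these samples only, which may be technical. The RNA came from whole cultures, in which fewer cells of a type and less RNA per cell cannot be told apart.

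Heat shock proteins are chaperones, which bind unfolded or newly made proteins and keep them from clumping while they fold. HSP70 proteins do this in cycles of ATP binding and hydrolysis: DNAJ proteins bring the client and trigger hydrolysis, and nucleotide exchange factors release it. HSP90 and chaperonins take over later folding steps, and small heat shock proteins hold clients without ATP and are abundant in heart muscle. Part of the family is made at all times and part is switched on by the heat shock factor HSF1 when proteins unfold. Hspa2, the gene that marks the set here, is an HSP70 best known from the testis, where it is needed for male meiosis, and is also found in other tissues.

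HSF1 binds DNA at heat shock elements, inverted repeats of the letters GAA and TTC. Promoters were therefore searched for GAANNTTC and TTCNNGAA in the 250 bases before each gene's start in the RefSeq promoter table of assembly GRCr8. Each of these motifs reads the same on both strands, and adjacent matches, which overlap by 3 letters, were counted separately. The stretches of 30 bases below, with matches in capitals, are shown because they let Hspa2 be read beside members of the heat-inducible and mitochondrial groups.
Hspa2, chr6:100864367-100864396, plus strand: gctctgagagtTTCCAGAAggcagggggtg
Hspa8, chr8:50080453-50080482, plus strand: gaacccTTCTGGAAGGTTCtaagacagggt
Hsph1, chr12:10427326-10427355, plus strand: cgcagaTTCTGGAAAGTTCtcctcagtagg
Hspa9, chr18:26828464-26828493, minus strand: gcagcaaacagGAAGTTTCtggtcaggcac
Hspe1, chr9:64084261-64084290, plus strand: gTTCTAGAACCTTCCGGAAggccccgcgct
Dnajb1, chr19:41431142-41431171, minus strand: cgacgcatcgggaggggcgGAAGGTTCtgg
Hspa2 had 1 match, 64 bases before its start, and Hspa8 had 4, Hsph1 and Hspe1 3 each, and Hspa9 and Dnajb1 1 each. Of 53 members with an entry in the promoter table, 14 (26.4%) held a match, against 3619 of 27457 promoters (13.2%) in the whole table. A match is a description of the letters, not a binding site or a cause. The 14 members without an entry include Hspa1b. The gene counts themselves were made on build Rnor_6.0, per the submitters' processing notes, so these coordinates belong to the sequences only.

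Gene counts summed to 19102048 to 25451686 per library, and 3 counts correspond to 0.118 to 0.156 CPM, the usual depth-scaled count unit, here after scaling by TMM. Rat Kat6a, the gene whose human form was delivered, stood at 45.5, 45.2 and 53.6 CPM in LacZ, 90.8, 82.0 and 106 in WT, 102, 122 and 101 in K815R, with 43.4, 50.0 and 45.7 in K815Q. Human and rat KAT6A reads were not distinguished. WT and K815R lay above all LacZ libraries, but K815Q did not: against LacZ the log2 fold change was -0.05 (edgeR adjusted p 0.815). The group is therefore called the K815Q-labelled libraries, and any direction drawn from it rests on that label. Markers of cardiomyocytes were high in every library: 11 of 12 were in the table and summed to 43486 to 49641 CPM. Their sum was highest in the 3 K815R libraries (48074 to 49641), above all 9 others. Nppa and Myh7, at mean levels of 13533 and 5066 CPM there against 11043 and 3916 in WT, made up more than the gap to WT. Of the 11 markers, 6 were lower in K815R than in WT. Against LacZ, 9 of the 11 were higher in WT, 10 in K815R and 6 in the K815Q-labelled libraries. Of these edgeR called 2 in WT (Mybpc3 and Pln), 0 in K815R and 1 in the K815Q-labelled libraries (Pln), all higher. Those calls were 18.2%, 0% and 9.09% of the 11, beside 5.34%, 2.47% and 7.85% of all genes. Fibroblast markers summed to means of 11378 CPM in WT and 11285 in K815R, below the 12202 of LacZ and the 12376 of the K815Q-labelled libraries. The part of either list in the differences among chaperones was not tested.

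Hspa2 (ENSRNOG00000006472) stood at 12.9, 13.5 and 12.7 CPM in LacZ, at 19.4, 16.9 and 21.7 in WT, and at 24.2, 25.0 and 25.7 in K815R. In the K815Q-labelled libraries it stood at 13.3, 13.7 and 12.2 CPM. Every WT library lay above every LacZ library and every K815R library above every WT library, while the K815Q-labelled libraries overlapped LacZ, with 1 inside its range, 1 just above and 1 just below. These levels rest on 234 to 635 counts per library. Hspa2 was singled out because this pattern was already known from these libraries, so the following sizes are a description. Against LacZ its log2 fold change was 0.57 in WT (95% interval 0.39 to 0.75, a 1.48-fold level) and 0.94 in K815R (0.77 to 1.11, a 1.92-fold level). In the K815Q-labelled libraries it was 0.00 (-0.18 to 0.19). K815R stood above WT by 0.37 (0.20 to 0.54), the least stable of these: its edgeR adjusted p, 0.0182 with all libraries, was 0.0617 without WT replicate 1, 0.108 without WT replicate 2 and 0.0676 without K815R replicate 3.

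**Figure D1:**
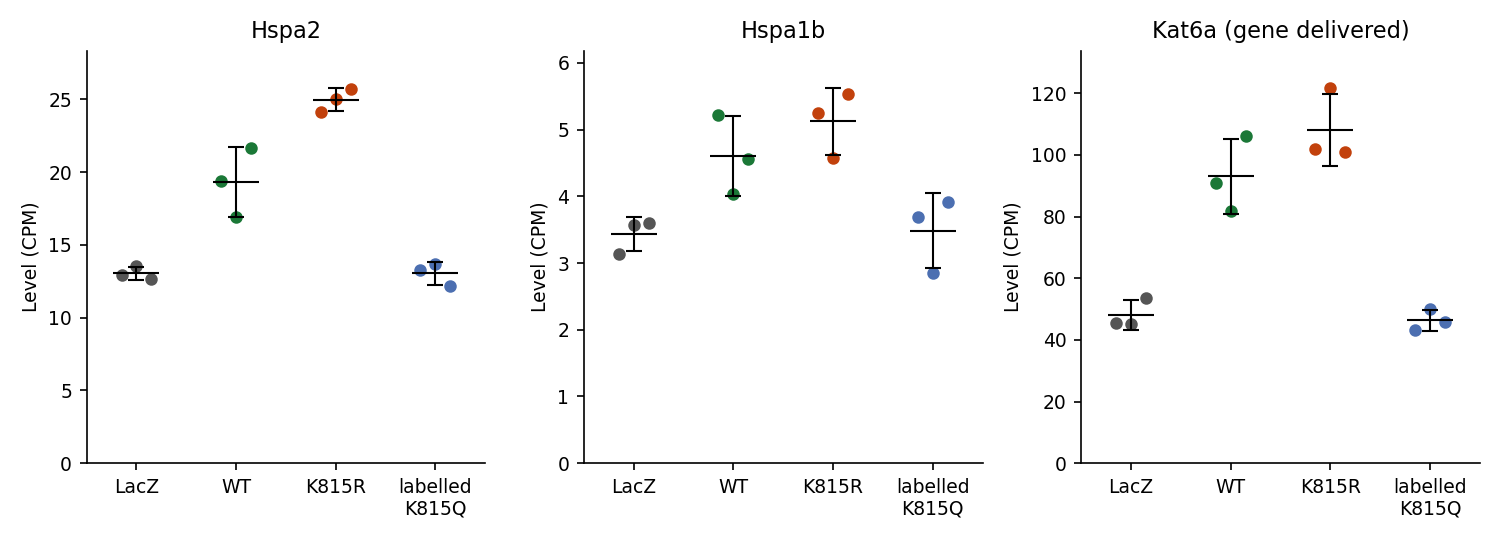
TMM-scaled CPM (vertical axis, from 0) of Hspa2, Hspa1b and Kat6a in each of the 12 libraries, by group (horizontal axis), with points for libraries and a line and bar for the mean ± SD of 3. For Hspa2 and Hspa1b the WT and K815R points lie above all LacZ points and all points labelled K815Q.

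Whether other chaperones rose with Hspa2 was asked of all 67 members. In WT against LacZ, 2 of 67 (2.99%) were called at an edgeR adjusted p under 0.05, from the quasi-likelihood test with Benjamini-Hochberg adjustment over all genes tested. Over all genes tested the share was 5.34%, with 1.95% higher and 3.39% lower. Besides Hspa2, which was higher, the call was Hsph1, which fell. In K815R against LacZ, 2 members were called, against 2.47% of all genes (0.74% higher, 1.74% lower), and both rose: Hspa2 and Hspa1b. In the K815Q-labelled libraries against LacZ, 3 members (4.48%) were called, against 7.85% of all genes (2.87% higher, 4.98% lower), and all 3 fell: Hspa9, Hspa4l and Dnajc13. Without Hspa2, whose pattern was known, the shares in WT, K815R and the K815Q-labelled libraries were 1.52%, 1.52% and 4.55% of 66 members. The shares over all genes depend on single libraries. For WT against LacZ the share fell to 2.65% without LacZ replicate 2 and 2.66% without WT replicate 2. For K815R against LacZ it fell to 1.21% without K815R replicate 1, 1.38% without K815R replicate 3, 1.3% without LacZ replicate 2 and 1.61% without LacZ replicate 3. For the K815Q-labelled libraries it fell to 2.52% without K815Q replicate 1, 5.14% without K815Q replicate 3, 2.93% without LacZ replicate 2 and 3.56% without LacZ replicate 3. The members' own counts in these fits were also small, so no share above or below the background is read from them.

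The contrasts among the KAT6A groups gave as few calls. K815R against WT gave 2 members higher, Hspa2 and Dnajb5, where 2.2% of all genes were called (1.32% higher, 0.882% lower). The libraries labelled K815Q against WT gave 1, Hspa2, lower (1.07% of all genes called, 0.718% higher and 0.356% lower), and K815R against those libraries gave 1, Hspa2, higher (0.363% of all genes called, 0.213% higher and 0.149% lower). When WT and K815R together were set against LacZ and the K815Q-labelled libraries, a contrast chosen to follow Hspa2, 1 of the 66 other members (1.52%) was called, where 0.647% of all genes were (0.164% higher, 0.484% lower). This was Hspa1b, which was higher. Any difference among the 4 groups was called for Hspa2 and for 3 of the 66 others, Hspa1b, Dnajb5 and Hspa9 (4.55%, beside 8.13% of all genes). The median log2 fold change of the members was -0.01 in WT, -0.01 in K815R and -0.04 in the K815Q-labelled libraries against LacZ, beside 0.01, 0.00 and 0.01 over all genes.

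**Figure D2:**
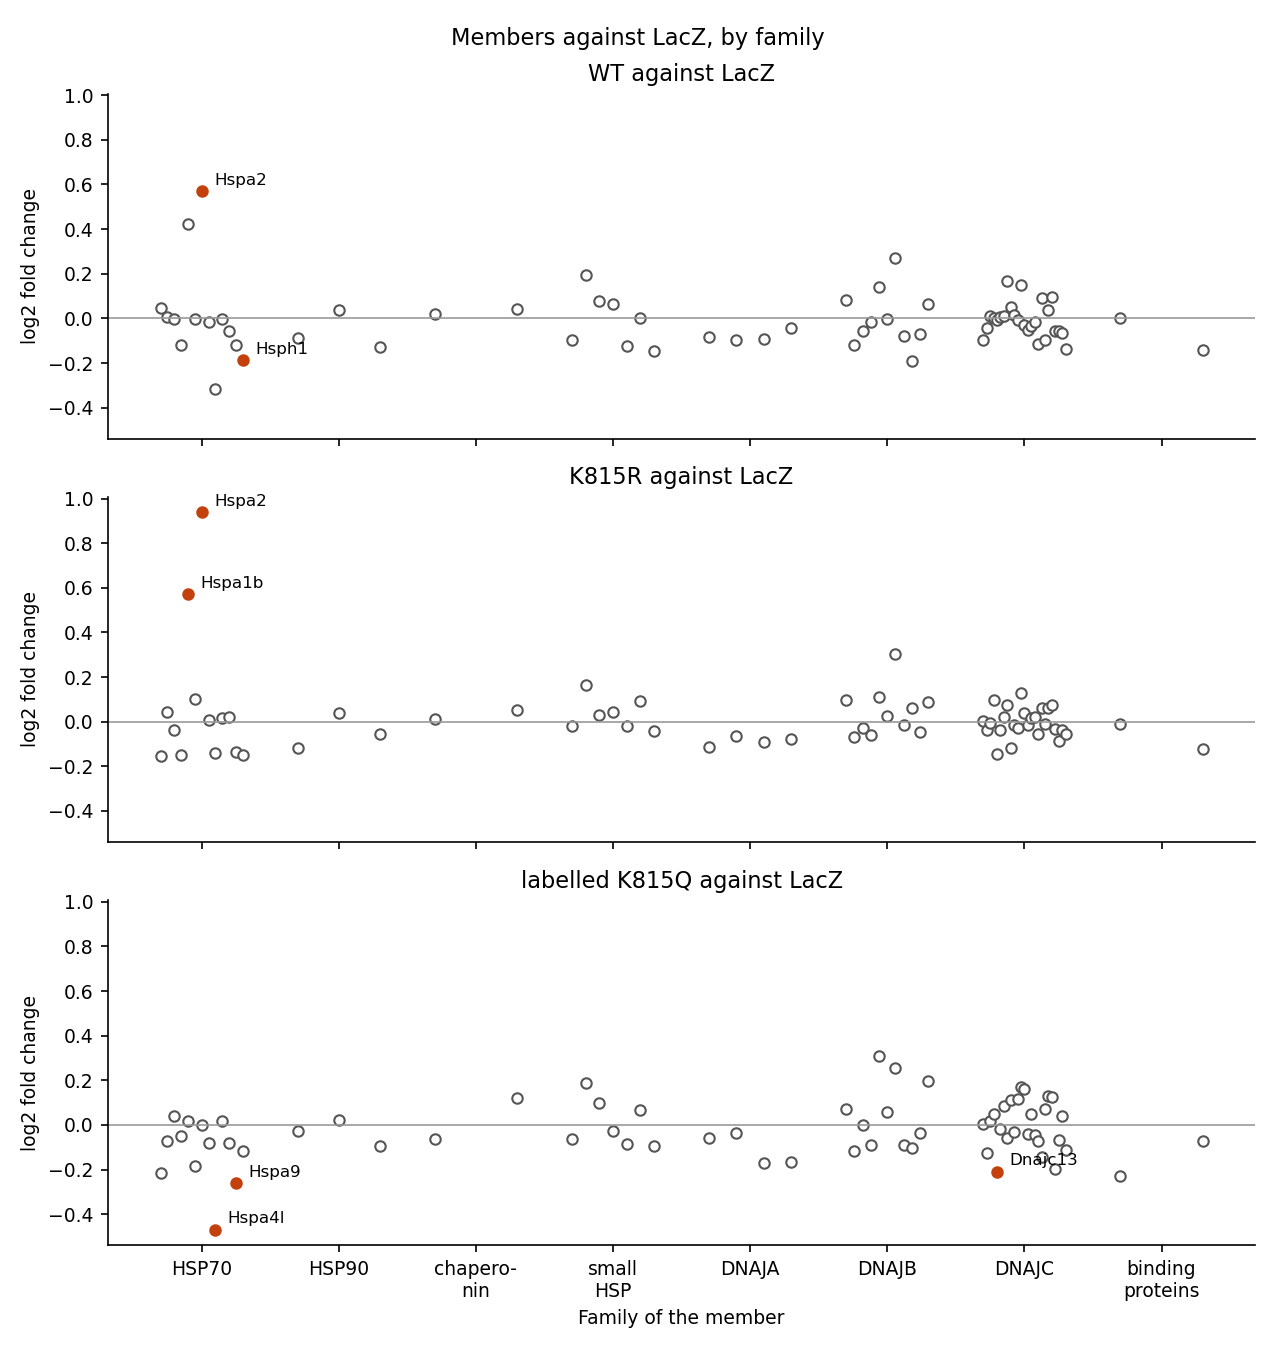
Log2 fold change against LacZ (vertical axis) of the 67 members, grouped by family (horizontal axis), in 3 panels for WT, K815R and the K815Q-labelled libraries. Filled, labelled points were called at an edgeR adjusted p under 0.05, and Hspa2 is the highest point in WT and in K815R. Uncalled points reach 0.42 (Hspa1b) and -0.32 (Hspa4l) in WT, 0.30 (Dnajb3) in K815R and 0.31 (Dnajb14) in the K815Q-labelled libraries.

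The intervals show how large a rise the data leave room for. In K815R against LacZ, the 95% intervals of 65 of the 66 other members ended below the lower end of Hspa2's interval, and the exception was Hspa1b. In the same comparison 61 of the 66 lay wholly within 0.5 of 0 on the log2 scale and 54 within 0.3, and the median size of their log2 fold change was 0.05. In WT against LacZ, where Hspa2 was less raised, 59 of 66 ended below its interval. The 7 others were Hspa1b, Hspb11 and Dnajb3, at log2 fold changes of 0.42, 0.19 and 0.27, and Dnajb13, Dnajb14, Hsp90aa1 and Hspa1l, whose intervals are wide at low counts. In the contrast of WT and K815R with the other 2 groups, 65 of 66 ended below Hspa2's interval of 0.63 to 0.88, and 60 lay wholly within 0.3 of 0. Hspa2 was picked with its rise known. Of the 14063 genes tested, Hspa2 included, 57 had a log2 fold change at least as high in K815R, 266 in WT and 39 in this contrast. The counts below its interval therefore follow largely from that choice. Shares of all genes within the same bounds were not counted, so these counts are a description of the members only.

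**Figure D3:**
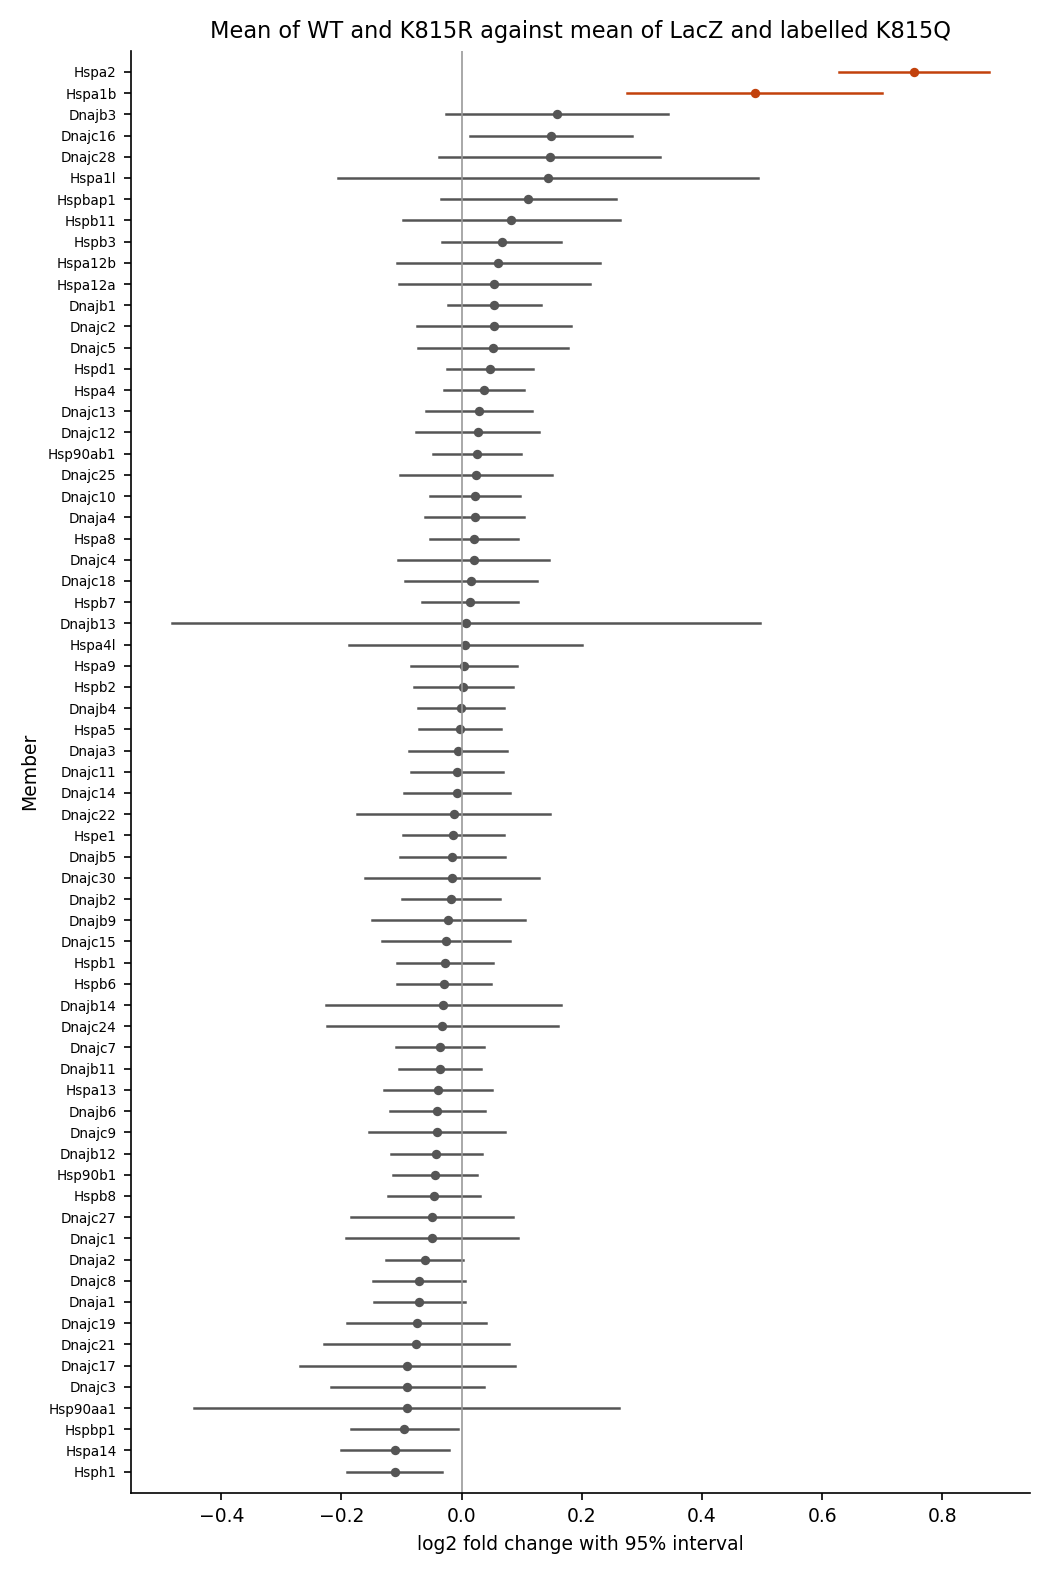
Log2 fold change (horizontal axis) of each of the 67 members (vertical axis) for the mean of WT and K815R minus the mean of LacZ and the K815Q-labelled libraries, with 95% intervals. Hspa2 stands at 0.75 and Hspa1b at 0.49; 61 of the 66 intervals other than that of Hspa2 include 0.

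Hspa1b (ENSRNOG00000050647), the stress-inducible HSP70 whose transcript is a classic readout of HSF1, came nearest to Hspa2. It stood at 3.14, 3.57 and 3.61 CPM in LacZ, 5.22, 4.03 and 4.56 in WT, 5.25, 4.57 and 5.54 in K815R, with 3.69, 2.84 and 3.91 in the K815Q-labelled libraries. All 6 WT and K815R libraries lay above all 6 others. Hspa1b was the only one of the 66 members besides Hspa2 with that order (1.52%), which 0.171% of all genes had (0.228% had the reverse); the order was chosen to follow Hspa2, so Hspa2 itself is left out of this share. It rose against LacZ in K815R by a log2 fold change of 0.57 (SE 0.141, edgeR adjusted p 0.0287). In WT the difference was 0.42 (SE 0.145, edgeR adjusted p 0.0952) and did not pass the test. K815R and WT differed by 0.15 (edgeR adjusted p 0.718), and the K815Q-labelled libraries stood at 0.02 against LacZ.

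The call on Hspa1b is thin. The gene had 56 to 122 counts per library. DESeq2 gave an adjusted p of 0.0659 for K815R against LacZ, and with edgeR the call was lost without LacZ replicate 1, 2 or 3 or K815R replicate 1 or 3, at adjusted p of 0.0637 to 0.137. In the contrast of WT and K815R with the other groups its log2 fold change was 0.49 (95% interval 0.28 to 0.70, edgeR adjusted p 0.0214), and the call held in 6 of 12 fits that each left out 1 library. Hspa1a, a nearly identical copy, was not analysed here under that symbol. Reads that aligned to more than 1 place, 25.6% to 26.9% of each library, were not counted, and how many of these belong to Hspa1b was not measured.

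No other HSP70 gene of the cytosol was called higher in any comparison. Hspa8 (ENSRNOG00000034066), the constitutive HSP70 of most cells, stood at 345 ± 15.0 CPM in LacZ (SD, n = 3) and at mean values of 331, 350 and 326 in WT, K815R and the K815Q-labelled libraries. Its log2 fold changes against LacZ were -0.06, 0.02 and -0.08. Because RefSeq names 33 Hspa8 pseudogenes, its count is also uncertain. Hspa4, an exchange factor of the HSP110 branch, stood at -0.02, 0.01 and -0.08, and Hspa14, which works at the ribosome, at -0.12, -0.15 and -0.05. The distant relatives Hspa12a and Hspa12b stood at 0.05, -0.15 and -0.21, and at 0.01, 0.04 and -0.07. Hspa1l, a testis-enriched relative of Hspa1b, had only 20 to 47 counts per library, and its intervals of -0.49 to 0.49 in WT and -0.37 to 0.58 in K815R leave its direction undetectable at this depth.

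Of the HSP110-type exchange factors, Hsph1 fell in WT and Hspa4l in the K815Q-labelled libraries. Hsph1 (ENSRNOG00000000902) stood at 85.3, 83.2 and 87.8 CPM in LacZ, 77.5, 75.9 and 71.6 in WT, 75.9, 80.1 and 74.6 in K815R, with 82.0, 80.9 and 73.6 in the K815Q-labelled libraries. All 9 KAT6A libraries lay below all 3 LacZ libraries. The share of all genes with this order, or with the other orders without overlap given below, was not counted, so these orders are a description only. It fell in WT by 0.19 on the log2 scale (SE 0.0538, edgeR adjusted p 0.0420), and the call was lost when any of the 6 LacZ and WT libraries was left out. The differences in K815R and in the K815Q-labelled libraries, -0.15 and -0.12, had edgeR adjusted p of 0.166 and 0.189. Hspa4l (ENSRNOG00000010819) stood at 8.50, 12.0 and 11.1 CPM in LacZ, 9.58, 6.93 and 8.89 in WT, 9.43, 8.95 and 10.4 in K815R, with 6.76, 7.97 and 8.13 in the K815Q-labelled libraries. The last group lay below LacZ without overlap. It fell there by 0.47 on the log2 scale (SE 0.132, edgeR adjusted p 0.0338), and the call held in 1 of 6 fits that left out a library of either group: it was lost without LacZ replicate 2 or 3 or any K815Q-labelled library, at adjusted p up to 0.176.

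Hspa9 (ENSRNOG00000019525), mortalin, is the HSP70 of the mitochondrial matrix and pulls imported proteins through the inner membrane. It stood at 238, 258 and 259 CPM in LacZ, 230, 227 and 239 in WT, 210, 242 and 235 in K815R, with 191, 216 and 222 in the K815Q-labelled libraries. The last group lay wholly below LacZ, while K815R overlapped it. Hspa9 fell in the K815Q-labelled libraries by 0.26 on the log2 scale (SE 0.0599, edgeR adjusted p 0.00950), a call held in 4 of 6 fits that left out a library and lost without LacZ replicate 2 or K815Q replicate 1 (adjusted p up to 0.0976). In WT and K815R the differences were -0.12 and -0.14 (edgeR adjusted p 0.289 and 0.304). RefSeq names 2 pseudogenes of Hspa9.

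Of the 10 mitochondrial members, Hspa9 was the only call in the 3 comparisons with LacZ, and 6 of the 10 were higher than LacZ in the K815Q-labelled libraries. Hspd1 and Hspe1, the chaperonin and its lid that fold matrix proteins, stood at mean levels of 248, 252, 251 and 238 CPM and of 146, 150, 152 and 159 CPM in LacZ, WT, K815R and the K815Q-labelled libraries. Their log2 fold changes against LacZ lay between -0.06 and 0.12. Dnaja3, the DNAJ partner of Hspa9, stood at -0.09, -0.09 and -0.17, with an edgeR adjusted p of 0.0591 for the last. The median of the 10 was 0.02 in WT, 0.02 in K815R and 0.05 in the K815Q-labelled libraries.

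In the endoplasmic reticulum, where secreted proteins fold, 0 of 14 members were called by edgeR or by DESeq2 in WT, in K815R or in the K815Q-labelled libraries against LacZ. At an unadjusted p under 0.05 there were 2, 0 and 4. The share of all genes at that threshold is not given here. Counts at an unadjusted p, here and below, are therefore not read as many or few. Hspa5 (BiP, ENSRNOG00000018294), the HSP70 of this compartment and the standard readout of the unfolded protein response, had mean levels of 795, 793, 805 and 805 CPM in LacZ, WT, K815R and the K815Q-labelled libraries. Hsp90b1, its HSP90, stood at -0.13, -0.06 and -0.10 against LacZ (edgeR adjusted p 0.134 in WT). All 3 WT and all 3 K815Q-labelled libraries lay below LacZ, while K815R overlapped it. The DNAJ partners Dnajb9, Dnajb11 and Dnajc3 stood at 0.07, -0.12 and -0.10 in WT and at 0.09, -0.07 and -0.01 in K815R. Hspa13, a smaller HSP70 of the microsomes, stood at 0.00, -0.04 and 0.04. Dnajb14 was the highest member in the K815Q-labelled libraries, at 0.31 (edgeR adjusted p 0.149).

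The HSP90 genes of the cytosol, which mature kinases and steroid receptors, did not pass the test in any comparison with LacZ. Hsp90ab1 (ENSRNOG00000019834), the constitutive form, had mean levels of 1352, 1386, 1389 and 1374 CPM in LacZ, WT, K815R and the K815Q-labelled libraries, and log2 fold changes of 0.04, 0.04 and 0.02. Hsp90aa1 (ENSRNOG00000059714), the inducible form, had only 20 to 37 counts per library, with intervals of -0.58 to 0.41 in WT and -0.61 to 0.37 in K815R. RefSeq names 23 pseudogenes of Hsp90ab1 and 16 of Hsp90aa1, so both counts are uncertain. By edgeR and DESeq2 alike, 0 of 3 HSP90 genes were called in WT, in K815R or in the K815Q-labelled libraries, with 1, 0 and 0 at an unadjusted p under 0.05.

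The small heat shock proteins, several of which guard the sarcomere, gave 0 calls among 7 by edgeR and by DESeq2 in each comparison with LacZ, and 2, 0 and 0 at an unadjusted p under 0.05. Hspb7, a small heat shock protein of heart muscle, stood at mean levels of 1062, 1064, 1133 and 1113 CPM in LacZ, WT, K815R and the K815Q-labelled libraries. Hspb1, which binds actin and is heat-inducible, stood at -0.10, -0.02 and -0.06 against LacZ on the log2 scale, and Hspb2, Hspb3 and Hspb6 lay between -0.12 and 0.10. Hspb8, which works with Bag3 in clearing damaged muscle proteins, had all 3 WT libraries below LacZ, at -0.15 (edgeR adjusted p 0.112). Hspb11, an intraflagellar transport protein that carries the family name, stood at 0.19, 0.16 and 0.19.

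Of the DNAJ genes, Dnajb5 and Dnajc13 were called. Dnajb5 (ENSRNOG00000000130), a cytosolic J-domain protein, stood at 76.9, 71.9 and 73.2 CPM in LacZ, 62.1, 71.0 and 61.2 in WT, 76.2, 81.1 and 74.2 in K815R, with 69.7, 71.9 and 65.4 in the K815Q-labelled libraries. The WT libraries lay below all LacZ and all K815R libraries. K815R stood above WT by 0.25 (SE 0.0600, edgeR adjusted p 0.0273), and the call was lost without WT replicate 1 or 3 or K815R replicate 1 or 2 (adjusted p up to 0.137). K815R differed from LacZ by 0.06, and WT from LacZ by -0.19 (edgeR adjusted p 0.0624), so the call separates the 2 KAT6A groups and is no rise over the control.

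Dnajc13 (ENSRNOG00000011491), a J-domain protein of endosomes that sorts membrane cargo, stood at 84.3, 84.8 and 97.7 CPM in LacZ, 90.0, 88.5 and 87.1 in WT, 79.3, 84.3 and 77.9 in K815R, with 73.9, 82.6 and 74.4 in the K815Q-labelled libraries. The last group lay below LacZ and WT. It fell there against LacZ by 0.21 on the log2 scale (SE 0.0602, edgeR adjusted p 0.0361). The call was lost in the fit of only the 6 libraries compared, and without LacZ replicate 2 or 3 or K815Q replicate 1 or 3.

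**Figure D4:**
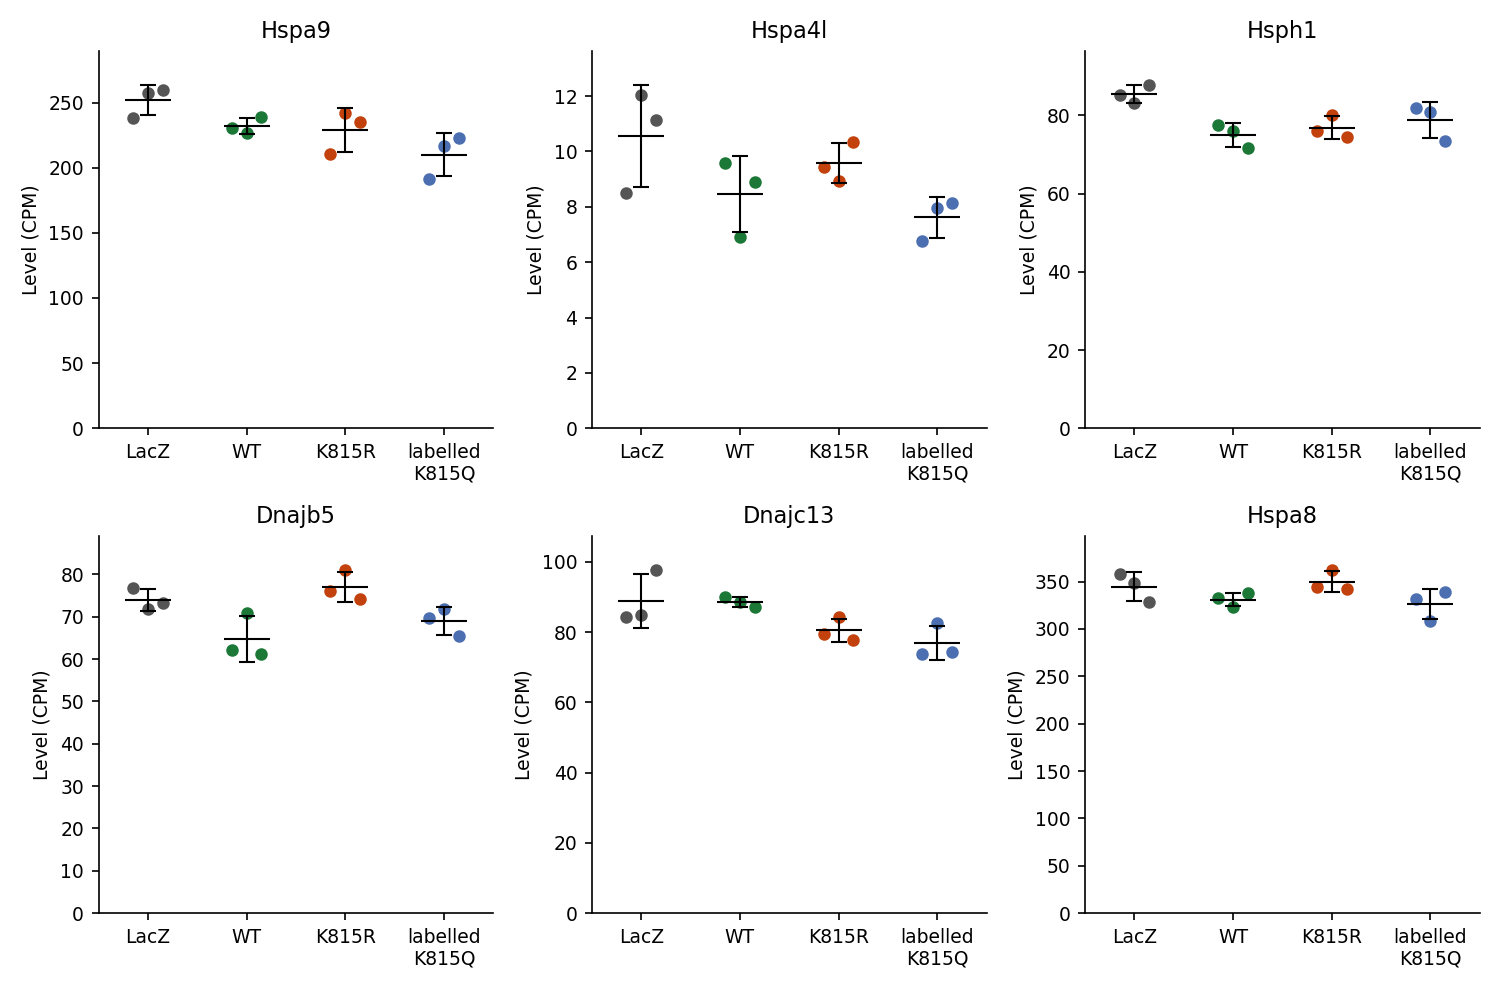
TMM-scaled CPM (vertical axis) of Hspa9, Hspa4l, Hsph1, Dnajb5, Dnajc13 and Hspa8 in each of the 12 libraries, by group (horizontal axis), with the mean ± SD of 3. The libraries labelled K815Q lie below LacZ for Hspa9, Hspa4l and Dnajc13, the WT libraries lie below K815R for Dnajb5, and the groups overlap for Hspa8.

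The remaining DNAJ genes were not called. The 4 DNAJA genes were all lower than LacZ in each of the 3 comparisons, between -0.17 and -0.04, and edgeR and DESeq2 called 0 of them, with 1, 1 and 2 at an unadjusted p under 0.05 in WT, K815R and the K815Q-labelled libraries. Dnajb1, the heat-inducible partner of Hspa1b and Hspa8, stood at 57.3, 57.2 and 54.3 CPM in LacZ, 57.4, 60.7 and 60.7 in WT, 60.9, 60.7 and 59.0 in K815R, with 61.9, 56.1 and 59.5 in the K815Q-labelled libraries. The differences from LacZ were 0.08, 0.10 and 0.07 (edgeR adjusted p 0.428 and 0.440 for WT and K815R), none of which passed the test. WT and K815R lay above LacZ without overlap, but narrowly: the lowest WT library stood at 57.40 CPM and the highest LacZ library at 57.27. The third group overlapped LacZ. Dnajb3, best known from the testis, stood at 0.27, 0.30 and 0.25 from mean levels of 7.63, 9.22, 9.44 and 9.11 CPM (edgeR adjusted p 0.249 in WT and 0.262 in K815R). Dnajb4, whose gene is heat-inducible and active in muscle, stood at -0.08, -0.01 and -0.09. The 25 DNAJC genes lay between -0.14 and 0.17 in WT, between -0.14 and 0.13 in K815R, and between -0.21 and 0.17 in the K815Q-labelled libraries.

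The extremes of the remaining contrasts did not pass the test. Hspa12a was the lowest member in K815R against LacZ, at -0.15 (edgeR adjusted p 0.584), and in K815R against WT, at -0.20 (0.438). Dnajc21, which takes part in ribosome assembly, was the highest in the K815Q-labelled libraries against WT, at 0.19 (0.429). Dnajc17, a partner of the splicing machinery, was the lowest in K815R against those libraries, at -0.23 (0.496). Of the proteins matched by name alone, the exchange factor Hspbp1 stood at -0.14, -0.12 and -0.07 against LacZ, and Hspbap1, a partner of Hspb1, at 0.00, -0.01 and -0.23 (edgeR adjusted p 0.164 for the last).

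**Figure D5:**
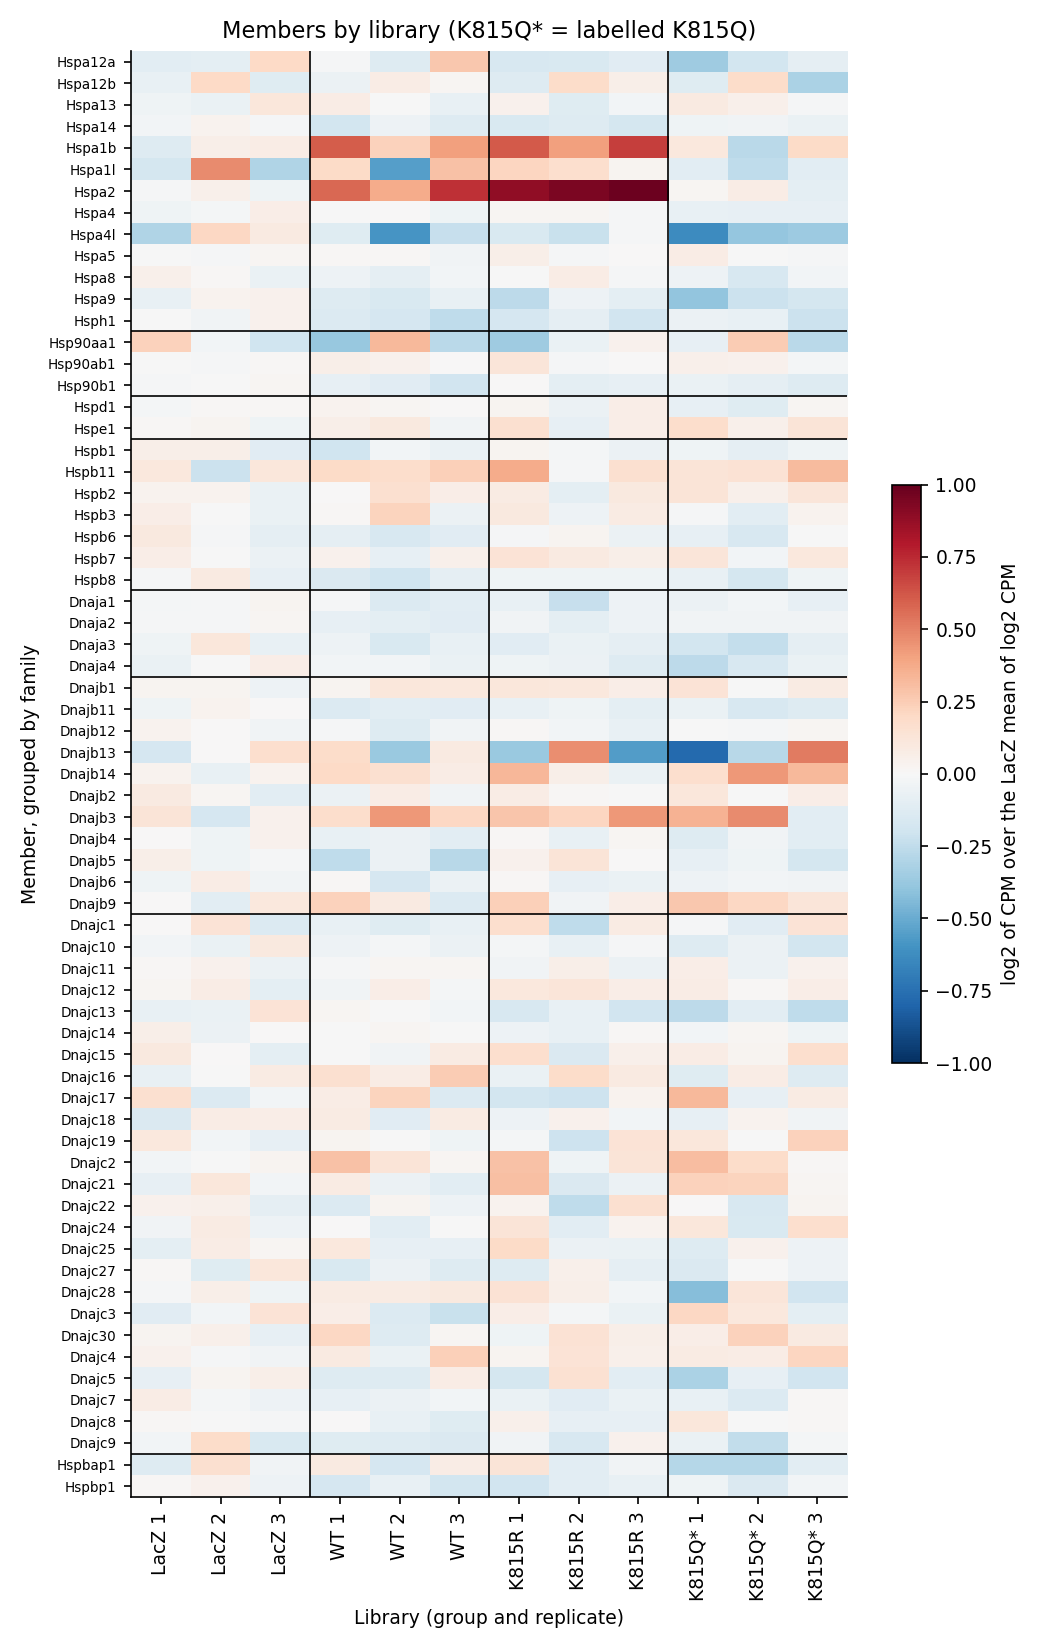
Log2 CPM of each of the 67 members (rows, by family) in each of the 12 libraries (columns) minus the mean of the LacZ libraries, on a colour scale; K815Q* marks the K815Q-labelled libraries. Hspa2 and Hspa1b are the rows in which all WT and K815R libraries lie above all others.

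Among 12 heat-inducible members, a list of HSF1 targets written with Hspa1a, which has no row of that symbol here, WT gave 1 call, Hsph1 lower, K815R gave 1, Hspa1b higher, and the K815Q-labelled libraries gave 1, Hspa4l lower. Each call was 8.33% of the list, beside 5.34%, 2.47% and 7.85% of all genes. The medians were -0.07, 0.00 and -0.06. Of 5 heat shock factors and regulators tested, 0 were called in WT or K815R by edgeR or DESeq2, with 2 and 1 at an unadjusted p under 0.05, and Hsf1 stood at 0.13, 0.06 and 0.08. Hsf2bp, a meiotic partner of HSF2, fell by 0.71 on the log2 scale in the K815Q-labelled libraries (edgeR adjusted p 0.0112). This 1 call was 20% of the list of 5, beside 7.85% of all genes. Hsf2bp stood at -0.41 in WT and -0.55 in K815R (edgeR adjusted p 0.144 and 0.0723), and all 9 KAT6A libraries lay below all 3 LacZ libraries. Of 6 tested members best known from the testis, edgeR called only Hspa2, higher, for both WT and K815R against LacZ. For the K815Q-labelled libraries it called only Hspa4l, lower. Relative to LacZ, 2, 3 and 2 of the 6 were higher in WT, K815R and the K815Q-labelled libraries. With WT and K815R together set against the rest, all 6 were higher (median 0.08, lowest 0.006), and only Hspa2 was called. K815R also stood above the K815Q-labelled libraries for all 6 (median 0.19), and those libraries stood below WT for all 6 (median -0.14). Hspa2 is among the 6, and their shared direction was not tested. Of the male germ cell markers, 10 of 12, among them Ddx4, Dazl, Sycp1, Stra8 and Prm1, had at most 3 counts in every library. All 12 summed to 3.92 to 5.90 CPM per library. The 2 that could be tested did not pass in any comparison: Sycp3 stood at 0.14 in WT and 0.05 in K815R against LacZ, and Sycp2 at 0.64 and 0.77, from 0.596 to 0.935 and 1.03 CPM. In the K815Q-labelled libraries against LacZ Sycp3 stood at 0.24 and Sycp2 at 0.47. In the contrast of WT and K815R with the rest Sycp2 stood at 0.47 (unadjusted p 0.0298, edgeR adjusted p 0.409) and Sycp3 at -0.03. Their part in the level of Hspa2 was not tested.

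Genes that work with HSP70 and HSP90 were taken as 2 lists. Of 20 exchange factors and co-chaperones of HSP70, Hspbp1 among them, edgeR called 0 in WT, in K815R or in the K815Q-labelled libraries against LacZ, with 4, 1 and 6 at an unadjusted p under 0.05, and DESeq2 called 1, 0 and 0. The DESeq2 call was Sec63, the J-domain protein of the translocon, at -0.15 in WT (edgeR adjusted p 0.0558), which rose in K815R against WT by 0.18 (edgeR adjusted p 0.0443). Bag3, an HSF1 target that hands clients to autophagy, stood at 0.03, 0.04 and 0.07. Of 18 HSP90 co-chaperones, Unc45b, the myosin chaperone of striated muscle, and Rpap3, of the R2TP complex, rose in WT by 0.19 and 0.21 (edgeR adjusted p 0.0180 and 0.0244), 11.1% of the list where 5.34% of all genes were called. In K815R edgeR and DESeq2 called 0 of the 18, with 1 at an unadjusted p under 0.05, and in the K815Q-labelled libraries Sugt1, a client adaptor, rose by 0.19 (edgeR adjusted p 0.0352). That call was 5.56% of the list, beside 7.85% of all genes.

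Of 14 subunits of TRiC and prefoldin, which fold actin and tubulin, 0 were called by edgeR or DESeq2 in any comparison with LacZ, and 0, 0 and 2 had an unadjusted p under 0.05. Of 5 other holdases, edgeR called 0 in each, with 0, 1 and 0 at an unadjusted p under 0.05, and DESeq2 called Clu in K815R. Of 20 genes of folding and stress in the endoplasmic reticulum, Herpud1, which serves the degradation of misfolded proteins, rose in WT by 0.23 and in the K815Q-labelled libraries by 0.24 (edgeR adjusted p 0.00700 and 0.00468). In the latter, Atf4, a transcription factor of the stress response, rose by 0.23 (edgeR adjusted p 0.00550) and Edem1, which takes glycoproteins to degradation, fell by 0.27 (edgeR adjusted p 0.0358). Called genes were 5% of this list in WT and 15% in the K815Q-labelled libraries, beside 5.34% and 7.85% of all genes. Of 10 mitochondrial proteases and import factors, Htra2 rose in WT by 0.21 and in the K815Q-labelled libraries by 0.19 (edgeR adjusted p 0.0365 and 0.0477). DESeq2 called it in WT only. That gene was 10% of the list in each, beside 5.34% and 7.85% of all genes. In K815R 0 of these 20 and 0 of these 10 were called by edgeR or DESeq2, with 3 and 1 at an unadjusted p under 0.05.

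Of the genes nearest Hspa2 in the RefSeq order, the long non-coding RNA genes LOC120103556 before it and LOC102556012 after it were not tested. Zbtb1 before Hspa2 and Ppp1r36 after it were tested. They stood at log2 fold changes of -0.04 and -0.15 in WT and 0.04 and 0.02 in K815R, and neither passed the test in any comparison. Genes of the type I interferon response were lower than LacZ in all 3 other groups. All 19 tested were lower in each, with medians of -2.37 in WT, -2.84 in the K815Q-labelled libraries and -1.98 in K815R. Of the 19, edgeR called 19, 19 and 18 lower in that order, where 3.39%, 4.98% and 1.74% of all genes were called lower. Summed, they held 618 to 985 CPM in LacZ, 165 to 269 in WT, 238 to 308 in K815R and 156 to 186 in the K815Q-labelled libraries, so that all LacZ libraries stood above all others. Their part in the results against LacZ was not tested. Macrophage markers summed to 82.0 to 104 CPM in LacZ and 104 to 118 in the KAT6A libraries, and endothelial markers to 164 to 241 CPM over all libraries. Of 11 macrophage markers, edgeR called Lyz2, higher, in WT and in K815R against LacZ. In the K815Q-labelled libraries it called Lyz2 and Adgre1, 1 higher and 1 lower. The called shares were 9.09%, 9.09% and 18.2% in WT, K815R and the K815Q-labelled libraries, beside 5.34%, 2.47% and 7.85% of all genes. Of 9 fibroblast markers, edgeR called 2 in WT against LacZ, Pdgfra and Postn, 1 higher and 1 lower (22.2%, beside 5.34% of all genes). It called 0 in K815R, and in the K815Q-labelled libraries Postn and Tcf21, both higher (22.2%, beside 7.85%). K815R against WT also gave Pdgfra and Postn, 1 in each direction. In the contrast of WT and K815R with the rest 7 of 9 fibroblast markers were lower, with a median of -0.07, and edgeR called 0 of them, with 1 at an unadjusted p under 0.05, while DESeq2 called Col1a1. In that contrast all 8 tested endothelial markers were higher, with a median of 0.12, and edgeR and DESeq2 called 0 of them, with 0 at an unadjusted p under 0.05. Against LacZ, 5 of the 8 were higher and 3 lower in WT, 8 higher and 0 lower in K815R, and 2 higher and 6 lower in the K815Q-labelled libraries. Of 11 cardiomyocyte markers, 10 were higher in the contrast of WT and K815R with the rest, with a median of 0.07. Here edgeR called 0, with 4 at an unadjusted p under 0.05, and DESeq2 called Myh7. Their part in the levels of Hspa2 and Hspa1b was not tested.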

How the data were processed

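The authors deposited 1 table of raw read counts per gene for 12 libraries. Per the submitters' processing notes, the tools were Trimmomatic 0.39, HISAT2 2.2.1, HTSeq 0.6.1 and edgeR, on build Rnor_6.0; the strand setting is not given in the sources used here, so overlapping and antisense genes are uncertain. The 5 counter lines were left out of library sizes; reads not assigned to a gene made up 40.7% to 43.3% of each library. No pair of replicates agreed within sampling noise (chi-square per degree of freedom 4.54 to 8.74). Counts were scaled by TMM, genes kept by filterByExpr (minimum count 10, minimum total 15) and tested with edgeR 4.0.16 in R 4.3.3 (quasi-likelihood, robust) in 1 model of 4 group means, for 6 pairwise comparisons, the mean of WT and K815R against the mean of LacZ and K815Q, and any difference. Intervals are 95%. Genes were named by a rule: Hspa2, every member called, a panel of members named whatever their result, members at the count minimum and at the extremes, Kat6a, called genes of other lists and neighbours of Hspa2. Genes of the interferon list were counted and not named. The members and lists were chosen with earlier results of these data known. Alternatives were RLE and upper-quartile scaling, the replicate number as a blocking factor, looser and stricter filters, 6-library fits, a minimum fold change, DESeq2 1.42.0 and fits without each library in turn. The fit was tested on simulated data. Promoters were matched by symbol to a RefSeq table of GRCr8; identity between HSP70 proteins was not run.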

Additional observations from a re-analysis of the deposited data

How the results depend on the processing

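The counts of members called were small, so single genes moved them. With upper-quartile scaling WT against LacZ gave 1, and with DESeq2 K815R against LacZ gave 1. With a log2 fold change of at least 0.5 required, WT against LacZ gave 1, K815Q against LacZ 0, K815R against WT 0, and WT and K815R against the other groups 1. Without the filter on low counts, K815Q against WT gave 2, K815R against K815Q 2 and any difference 7. Leaving out each library in turn, the counts ranged from 1 to 3 for WT against LacZ, 1 to 2 for K815R against LacZ, 0 to 3 for K815Q against LacZ, 0 to 2 for K815R against WT, 1 for K815Q against WT, 1 for K815R against K815Q, 1 to 2 for WT and K815R against the other groups, and 2 to 6 for any difference. The cause was not tested. Same-numbered libraries correlated between -0.127 and 0.122, with 1 of 18 pairs over 0.1, and differently numbered ones between -0.129 and 0.145. Among WT, K815R and K815Q, same-numbered pairs were all positive (0.0002 to 0.122), while those with LacZ were mostly negative. With the replicate number as a block, 9.1% of all genes were called for K815Q against LacZ, beside 7.85% without it. For K815Q against WT the shares were 1.65% and 1.07%. Whether the numbers pair the libraries was not tested. With the replicate block the counts were 3 for WT against LacZ, where Dnajb5 joined (-0.20, edgeR adjusted p 0.0419), 2 for K815R against LacZ, 3 for K815Q against LacZ, 2 for K815R against WT, 1, 1 and 2 for the remaining contrasts and 4 for any difference. Hspa2 kept its direction and its call in WT and in K815R against LacZ under every alternative run, with log2 fold changes of 0.48 to 0.66 and 0.92 to 0.96. Hspa2 was singled out with this pattern known from the same libraries. These fits therefore describe how the settings move it and are no independent support for the rise. A member minimum of 10 counts in all 12 libraries gives 66 members and 1 count in any library gives 72. Depth limits Hspa1l, Hsp90aa1 and Dnajb13, whose intervals leave moderate changes undetectable.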
